A study of Homo sapiens with 12 samples.

Results

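The genes described here each had a probe set with low values, called silent below, in untreated H929 cells and far higher values after CHR-3996. H929 is a human multiple myeloma line, a malignant plasma cell grown in culture, and CHR-3996 inhibits histone deacetylases (HDACs). The set was chosen on the expression values themselves. A probe set, the group of probes that reports 1 transcript on the Affymetrix U133 Plus 2.0 array, was a member if it was annotated to 1 gene, if its mean log2 value over the 3 untreated arrays was under 5, and if its mean over the 3 CHR-3996 arrays was at least 4 higher, which is a 16.2-fold difference at the smallest rise found. The HLA, RGS, CCL, CXCL, IFIT, MT1 and histone families and the genes SELENOP, CDKN2B and CDKN1C were left out, which removed 15 further probe sets. The rule found 125 probe sets of 115 genes among 54613 probe sets on the array, and the members were 0.689% of the 18141 eligible probe sets with an untreated mean under 5. The 4 groups of 3 arrays each were untreated cells, cells given 250 nM CHR-3996, cells given 1 µM tosedostat (CHR-2797, an aminopeptidase inhibitor), and cells given both compounds at these doses, each treatment for 24 h. All groups were the same cell line, so every value describes 1 tumour's cells in culture. The arrays of a group are labelled as biological replicates, and nothing states that they came from separate cultures, so that a p-value takes in no more than the spread among these arrays, which may be technical.

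HDACs remove acetyl groups from the tails of histones, and chromatin without these groups is packed tightly and is poorly transcribed. Inhibitors of the enzymes let acetylation build up, which can allow transcription of some genes that a cell type normally keeps off. Tosedostat acts elsewhere, by blocking enzymes that trim amino acids from the ends of peptides. Plasma cells make antibody, and neuronal, bone and steroid hormone genes are not part of their known function. Listed genes of such families were not all low in untreated cells. Of 24 listed genes of the neuronal cytoskeleton, each read by its brightest probe set, 13 lay above the array median on all 3 untreated arrays. The same share over all genes was not worked out, so the count does not set these genes apart from others.

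Promoter sequence from RefSeq (GRCh38.p14) was at hand for 90 of the 115 member genes. Each window held 250 bases before and 50 bases after the start listed for the gene. For MAP2 the listed start lies inside the gene, so its window, though counted among the 90, is not shown. The 250 bases before the start are shown for 5 genes. FN1 and RAB3C are rich in CG dinucleotides, and DMP1 and HSD11B1 are poor in them. PTGS2, with 12 in its whole window, is near the median of 13 over the member genes. FN1 (fibronectin, chr2:215436069-215436318, minus strand) and RAB3C (a vesicle GTPase, chr5:58582825-58583074, plus strand) hold 32 and 21 CG dinucleotides. DMP1 (dentin matrix protein, chr4:87650030-87650279, plus strand), HSD11B1 (a cortisol-producing enzyme, chr1:209685929-209686178, plus strand) and PTGS2 (an inducible prostaglandin synthase, chr1:186680424-186680673, minus strand) hold 2, 3 and 9. Each sequence reads 5′ to 3′ on the strand of the gene, and capitals mark the letters GGGCGG (the core of the GC box), TGACGTCA (the cyclic AMP response element) and TATAAA (the TATA box).
FN1: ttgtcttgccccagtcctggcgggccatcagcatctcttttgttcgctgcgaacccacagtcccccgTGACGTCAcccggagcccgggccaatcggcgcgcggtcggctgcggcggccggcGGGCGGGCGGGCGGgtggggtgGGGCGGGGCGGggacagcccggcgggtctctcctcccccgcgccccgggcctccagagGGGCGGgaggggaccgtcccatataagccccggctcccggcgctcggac
RAB3C: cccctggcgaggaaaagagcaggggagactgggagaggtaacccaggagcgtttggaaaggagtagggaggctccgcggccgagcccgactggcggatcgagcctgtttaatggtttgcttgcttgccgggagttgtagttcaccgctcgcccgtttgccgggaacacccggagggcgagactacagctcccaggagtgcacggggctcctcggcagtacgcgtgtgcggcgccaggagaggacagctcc
DMP1: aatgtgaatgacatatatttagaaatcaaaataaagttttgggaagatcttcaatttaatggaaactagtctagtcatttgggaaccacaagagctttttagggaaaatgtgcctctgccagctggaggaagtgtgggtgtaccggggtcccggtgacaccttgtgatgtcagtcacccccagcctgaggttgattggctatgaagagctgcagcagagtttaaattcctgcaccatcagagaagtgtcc
HSD11B1: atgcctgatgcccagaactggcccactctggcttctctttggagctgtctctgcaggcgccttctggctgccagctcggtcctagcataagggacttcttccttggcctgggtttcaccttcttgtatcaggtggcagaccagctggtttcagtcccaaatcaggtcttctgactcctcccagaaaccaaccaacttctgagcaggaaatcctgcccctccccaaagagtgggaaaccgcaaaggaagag
PTGS2: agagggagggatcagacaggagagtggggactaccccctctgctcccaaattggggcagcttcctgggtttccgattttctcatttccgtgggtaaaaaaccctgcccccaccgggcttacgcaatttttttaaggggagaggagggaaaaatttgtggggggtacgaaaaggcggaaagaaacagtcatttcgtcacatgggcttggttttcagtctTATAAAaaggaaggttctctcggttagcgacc
FN1 had GGGCGG at 6 places, some of them overlapping, and TGACGTCA from 183 to 176 bases before its start. PTGS2 had TATAAA from 32 to 27 bases before its start. None of the motifs searched was in the stretches shown for RAB3C, DMP1 and HSD11B1, which says only that these letters were not in those windows.

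The members were low without CHR-3996 and high with it, and tosedostat left most of them low. On the log2 scale the median of the members' group means was 2.96 in untreated cells (range 0.08 to 4.95), 7.66 under CHR-3996 (4.72 to 10.45), 3.61 under tosedostat (0.57 to 7.07) and 7.60 under the combination (3.97 to 10.41). The untreated and CHR-3996 values are those the rule selected on and are a description. The rise under CHR-3996 ran from 4.02 to 6.95 with a median of 4.62, a 24.6-fold difference. The median of an array over all its probe sets was 5.0 to 5.06 in untreated cells, 5.24 to 5.29 under CHR-3996, 5.04 to 5.06 under tosedostat and 5.26 to 5.30 under the combination. Against these, 118 members lay below the array median on all 3 untreated arrays and 95 on all 3 tosedostat arrays, whereas 117 lay above it on all 3 CHR-3996 arrays and 114 on all 3 combination arrays. Exact zeros, at the bottom of the scale, occurred on untreated arrays in 10 members and on tosedostat arrays in 4, and in none with CHR-3996. Low values also scattered more: the median SD over 3 arrays was 0.51 in untreated cells and 0.48 under tosedostat against 0.33 and 0.26 in the groups with CHR-3996. Bulk arrays cannot tell more cells expressing a gene from more RNA per cell.

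**Figure D1:**
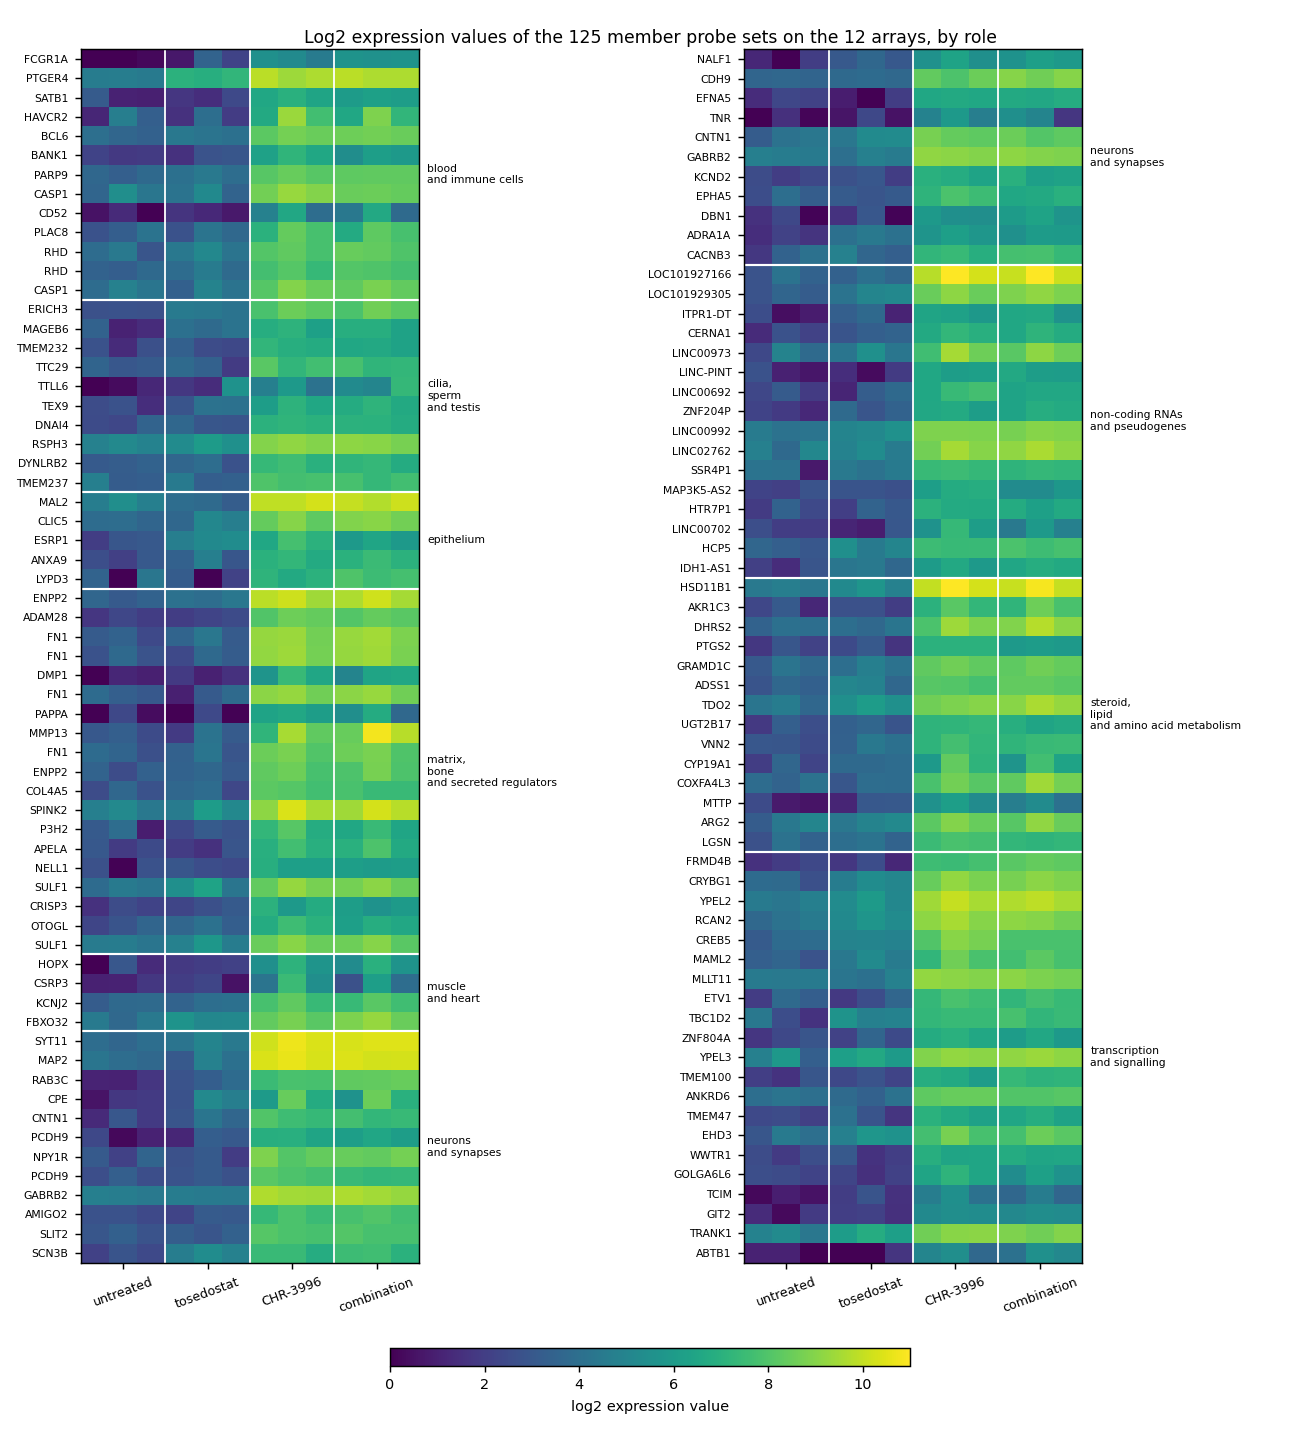
Colour gives the deposited log2 expression value of each of the 125 member probe sets (rows, grouped by role) on each of the 12 arrays (columns, 3 per group). The untreated and tosedostat columns are dark in nearly every row and the CHR-3996 and combination columns are light, and PTGER4, YPEL3 and TRANK1 are among the rows already lighter under tosedostat alone.

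The word silent stands here for an untreated mean under 5, a limit near the array median, and not for the absence of a transcript. Some members exceeded the median on an untreated array, such as YPEL3 at 5.87 and MAL2 at 5.45. The word also describes the probe set rather than every transcript of the gene. For 68 of the member genes the array carried 140 other probe sets, and 40 of these, in 29 genes, had an untreated mean of at least 5. CASP1, GIT2 and TMEM237 each had another probe set at 8 or more in untreated cells. At the edges of the rule the values ran on without a gap. The members with the smallest rise were ABTB1 (4.02), TMEM237 (4.05) and DYNLRB2 (4.07), and the nearest probe sets outside were those of SGIP1 and IGF1, both at 4.0 after rounding, and another probe set of EFNA5 (3.99). The members nearest the limit of 5 in untreated cells were RSPH3 and MAL2 (both 4.95) and TRANK1 (4.83), and SESN3 (5.01), RUNDC3B (5.07) and SGPP1 (5.13) lay just beyond it. Requiring a rise of 3 in place of 4 would give 365 probe sets, and a rise of 5 would give 31.

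The question that can be tested on arrays the rule did not use is whether the member probe sets were also higher when CHR-3996 was given together with tosedostat than with tosedostat alone. In that comparison 122 of the 125 probe sets, in 112 genes, were higher in the combination and none was lower, at an adjusted p under 0.05 from limma over all probe sets. Of the 140 other probe sets, which belong to 68 of these genes, 49 were called higher, in 35 genes, and none lower. Their median difference was 0.67, so the count above is one of probe sets and not of every transcript of the genes. Of all probe sets, 17.6% were called higher and 8.07% lower in this comparison, and of the 18141 eligible probe sets that were silent in untreated cells 11.3% were called higher. The median difference over the members was 3.85 on the log2 scale (range 1.02 to 6.70), against 0.11 over all probe sets, whose 5th and 95th percentiles were -1.05 and 1.64. The difference was at least 3 for 102 members and at least 5 for 24. The combination arrays lay wholly above the tosedostat arrays for 123 members, as they did for 25.7% of all probe sets, and TNR and TTLL6 overlapped. The 3 not called were TTLL6 (2.94, adjusted p = 0.0734 from limma), CSRP3 (2.66, adjusted p = 0.0733) and ESRP1 (1.02, adjusted p = 0.0671), and with no adjustment all 125 had a p under 0.05, as did 35.0% of all probe sets. Raising values under 4 to 4, since many tosedostat values lie near the bottom of the scale, gave a median difference of 3.23 and ended the call of 8 members, ABTB1, CD52, CPE, LINC00702, MTTP, PAPPA, TCIM and TNR, while ESRP1 was then called. Ranks and folds of the differences below are therefore those of the values as deposited. With array medians made equal, or after quantile normalization, 120 members were called higher, while the share of higher calls among all calls moved from 68.6% to 46.6% and 49.0%.

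**Figure D2:**
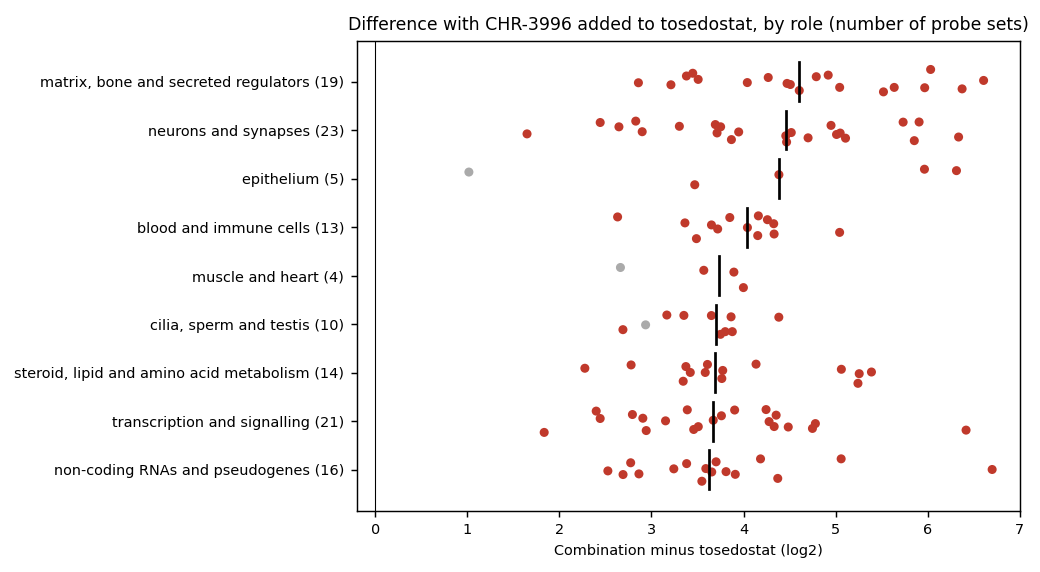
Each point is 1 member probe set, placed by its mean log2 value in the combination minus that under tosedostat (horizontal axis) within its role (rows, with the number of probe sets); black bars are medians and points are spread vertically for legibility. All points lie to the right of 0, red points passed the test and the 3 grey ones (TTLL6, CSRP3 and ESRP1) did not.

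Genes of neurons and synapses made up 23 probe sets of 20 genes, and all 23 were higher in the combination than under tosedostat (median difference 4.46). The roles here were given after the values were known, from the textbook function of each gene, and carry no test. MAP2, which stabilises the microtubules of dendrites, read 4.26, 3.93 and 3.72 on the untreated arrays, 10.39, 10.63 and 10.33 under CHR-3996, 3.07, 4.83 and 4.07 under tosedostat, and 10.43, 10.26 and 10.30 under the combination. The values with and without CHR-3996 were far from overlapping and the tosedostat arrays overlapped the untreated ones. The difference between combination and tosedostat was 6.34 (standard error 0.36, adjusted p = 4.23e-06 from limma), and 6.03 when values under 4 were raised to 4. A further probe set of the gene was also called, with a difference of 3.79. SYT11, a synaptotagmin of vesicle trafficking, gave 10.31, 10.44 and 10.48 in the combination against 4.25, 4.97 and 4.45 with tosedostat, after 3.95, 3.63 and 3.98 untreated and 10.19, 10.73 and 10.36 under CHR-3996. The difference was 5.85 (standard error 0.21, adjusted p = 6.72e-07), with no overlap. Among the 125 members, these were the only probe sets above 10 on all 6 arrays with CHR-3996.

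Vesicle release and prohormone processing were also represented. RAB3C, a GTPase carried by synaptic and secretory vesicles, read 1.11, 1.03 and 1.76 untreated, 7.51, 7.86 and 7.80 under CHR-3996, 2.83, 3.27 and 3.83 under tosedostat, and 8.30, 8.35 and 8.43 under the combination. Its 4 groups did not overlap one another, in the order untreated, tosedostat, CHR-3996, combination. CPE, the carboxypeptidase that trims prohormones in secretory granules, was far more scattered, with 0.58, 1.79 and 1.86 untreated, 5.99, 8.43 and 6.77 under CHR-3996, 2.78, 5.19 and 4.69 under tosedostat, and 5.60, 8.54 and 7.0 under the combination. The combination was 2.83 above tosedostat (standard error 0.90, adjusted p = 0.043 from limma). This call was lost when values under 4 were raised to 4 (adjusted p = 0.0563), when the arrays were rescaled, and in a fit on these 6 arrays alone (adjusted p = 0.0989). With the replicate number as a block the adjusted p was 0.000879. Another probe set of CPE was not called, with a difference of -0.53.

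Some members were receptors and channels of neurons. GABRB2, a subunit of the receptor for the inhibitory transmitter GABA, was the steadiest: 4.75, 4.65 and 4.46 untreated, 9.71, 9.50 and 9.45 under CHR-3996, 4.61, 4.52 and 4.43 under tosedostat, 9.66, 9.49 and 9.27 in the combination. The difference between the last pair of groups was 4.95 (standard error 0.14, adjusted p = 4.82e-07, the lowest of any member), a further member probe set of the gene gave 4.52, and one that was no member gave -0.05. NPY1R, a receptor for neuropeptide Y, was higher by 5.91, KCND2, a voltage-gated potassium channel, by 3.95, and SCN3B, an accessory subunit of sodium channels, by 2.44. ADRA1A, an adrenergic receptor, had the smallest called difference of the group, 1.65 (standard error 0.23, adjusted p = 0.000539). Its 3 tosedostat values of 4.06, 4.46 and 4.10 stood above 1.42, 2.16 and 1.65 in untreated cells. The other ADRA1A probe sets were not called, with differences between combination and tosedostat of -0.55 to 0.82. Adhesion and guidance molecules made up much of the rest. The contactin CNTN1 (2 probe sets, 3.87 and 3.30), the protocadherin PCDH9 (2 probe sets, 3.75 and 4.46), the cadherin CDH9 (5.11), the axon repellent SLIT2 (4.70), and the ephrin receptor EPHA5 (3.69) with EFNA5, an ephrin ligand of that receptor class (5.73), were all called higher. TNR, a matrix protein of the nervous system, was called (2.90, adjusted p = 0.0451), but the call was lost with values under 4 raised to 4 (0.81, adjusted p = 0.2), its 2 other probe sets were not called, and 1 of its combination arrays, at 1.76, lay among the tosedostat values of 0.60, 2.37 and 0.53.

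Genes of the extracellular matrix, of bone and of secreted regulators formed 19 probe sets of 14 genes, all called higher in the combination, with a median difference of 4.61, or 3.58 when values under 4 were raised to 4. FN1, fibronectin, the adhesive glycoprotein of connective tissue, had 4 member probe sets. Its probe set with the largest rise read 3.14, 3.46 and 2.44 untreated, 9.26, 9.35 and 8.64 under CHR-3996, 3.54, 4.35 and 3.15 under tosedostat, and 9.31, 9.46 and 8.82 under the combination. The 4 probe sets gave differences of 4.92 to 6.37 between combination and tosedostat, and 3 of them are of a design that may also bind related transcripts. The 3 other FN1 probe sets on the array were not called, with differences of 0.32, 0.34 and -0.32. DMP1, a mineral matrix protein of osteocytes and teeth, was near 0 in untreated cells (0.00, 1.19 and 0.96) and under tosedostat (1.85, 1.00 and 1.56) and reached 5.70, 7.42 and 6.53 with CHR-3996 and 4.96, 6.41 and 6.56 with both compounds. The difference between combination and tosedostat was 4.51 (standard error 0.54, adjusted p = 0.000203), and 1.98 (adjusted p = 0.0158) with values under 4 raised to 4, although another probe set of the gene stayed low, with means of 3.28 untreated and 3.13 under CHR-3996.

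Enzymes that act outside the cell stood high in this group. ENPP2, autotaxin, which makes the lipid mediator lysophosphatidic acid, read 3.63, 3.11 and 3.46 untreated, 9.88, 10.17 and 9.45 with CHR-3996, 4.12, 3.95 and 4.36 with tosedostat, and 9.64, 10.20 and 9.50 with both. No array with CHR-3996 came near those without it, and the difference was 5.64 (standard error 0.25, adjusted p = 1.37e-06). MMP13, a collagenase of cartilage and bone, was more variable, at 7.22, 9.56 and 8.33 under CHR-3996 and 8.45, 10.80 and 9.80 in the combination against 1.85, 4.20 and 3.17 under tosedostat. Its difference was 6.61 (standard error 0.77), or 5.61 with values under 4 raised to 4. ADAM28, a membrane metalloproteinase, was higher by 5.97, the sulfatase SULF1, which edits heparan sulfate, by 3.38 and 3.51 in its 2 probe sets, and COL4A5, a chain of basement membrane collagen, by 4.27. APELA, a peptide hormone for the apelin receptor, was higher by 5.04 and PAPPA, a protease that frees insulin-like growth factors from their binding proteins, by 4.47. The call of PAPPA was lost when values under 4 were raised to 4 (1.41, adjusted p = 0.11), and none of its other probe sets was called.

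**Figure D3:**
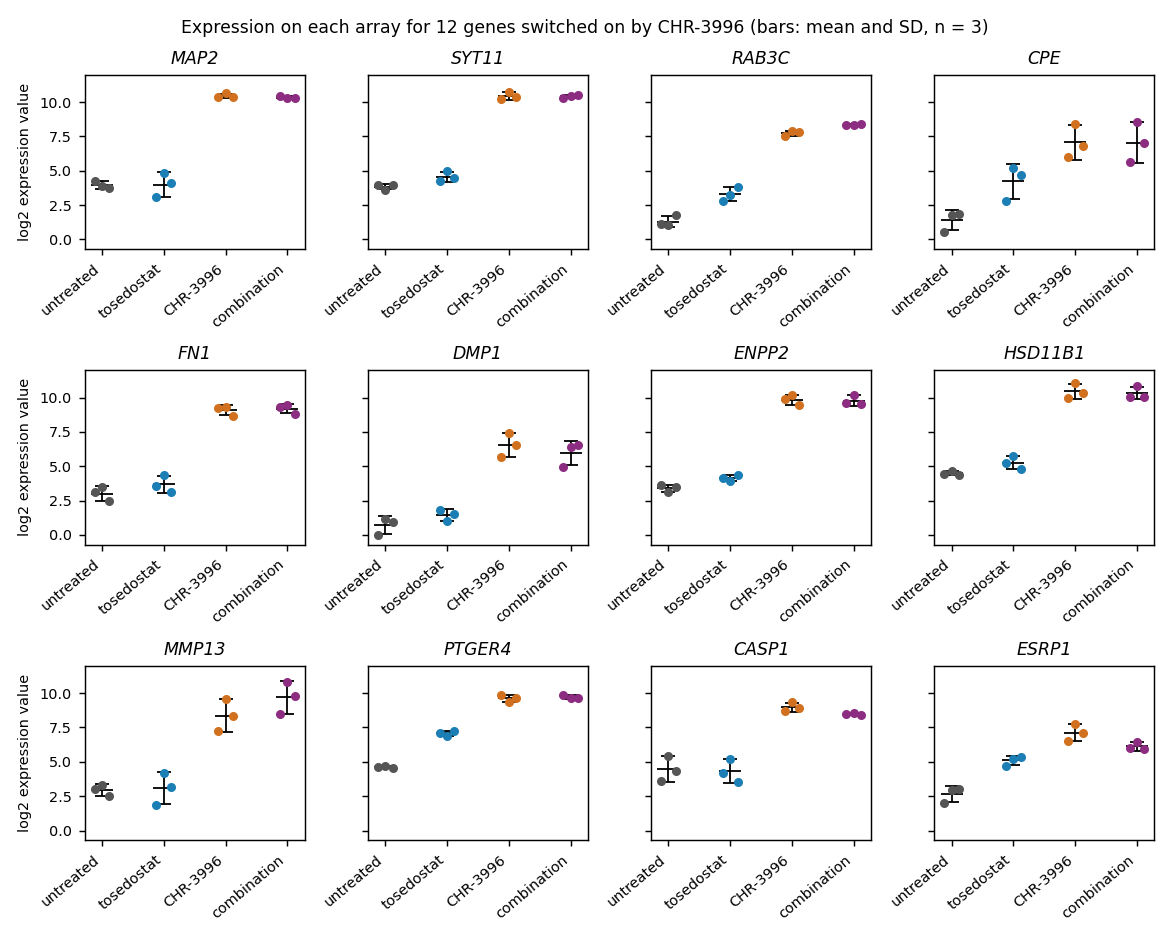
Points are the deposited log2 values of 12 member genes on each of the 3 arrays of a group, with the mean and SD; a gene with several member probe sets is shown by the first in order of its rise. The CHR-3996 and combination values stand above the untreated and tosedostat values in every panel, PTGER4, RAB3C and ESRP1 were also called higher under tosedostat alone than in untreated cells, and CPE and MMP13 have wide bars.

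Steroid, lipid and amino acid metabolism supplied 14 probe sets of 14 genes, each called higher in the combination (median 3.69). HSD11B1, the enzyme that regenerates cortisol from cortisone, read 4.46, 4.69 and 4.38 untreated, 9.99, 11.04 and 10.30 under CHR-3996, 5.22, 5.75 and 4.82 under tosedostat, and 10.07, 10.86 and 10.04 under the combination. The difference of 5.06 (standard error 0.33, adjusted p = 7.76e-06) stood well clear of the spread within groups. Other enzymes of steroid hormones were AKR1C3, which makes androgens (5.39), CYP19A1, the aromatase that makes oestrogens (2.78, adjusted p = 0.0122), and UGT2B17, which inactivates androgens (3.37). Another CYP19A1 probe set was called, with a difference of 2.73, and the rest of that gene's probe sets were not. AKR1C3 and UGT2B17 have near-identical relatives, so that their probe sets may also read other genes of their families. TDO2 breaks down tryptophan (3.61), ARG2 is the mitochondrial arginase (3.76) and MTTP loads lipid onto lipoproteins (2.28, adjusted p = 0.0234), though MTTP was not called when values under 4 were raised to 4. PTGS2, the inducible cyclooxygenase of prostaglandin synthesis, read 7.07, 7.07 and 7.08 under CHR-3996 and 5.90, 6.10 and 5.92 in the combination, against 2.47, 3.07 and 1.63 under tosedostat. The combination arrays lay between those of the 2 single compounds without overlap.

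Genes of blood and immune cells were 13 probe sets of 11 genes, all called higher (median 4.04), and included genes of stages and lineages other than the plasma cell. BCL6, the repressor that holds B cells in the germinal centre and that plasma cells switch off, read 4.01, 3.62 and 3.39 untreated, 8.25, 8.70 and 8.50 under CHR-3996, 4.42, 4.23 and 4.08 under tosedostat, and 8.58, 8.66 and 8.47 under the combination. The difference was 4.33 (standard error 0.18, adjusted p = 1.1e-06). The other BCL6 probe sets were not called, with differences of 0.91 and 0.45. BANK1, a scaffold of B cell receptor signalling, was higher by 3.36, CD52, a surface peptide of lymphocytes, by 3.72, HAVCR2 (TIM-3), an inhibitory receptor of T cells, by 5.04, and the erythroid blood group gene RHD by 3.65 and 3.85 in 2 probe sets that its close relative may share. The other HAVCR2 probe sets were not called, with differences of 0.78, 0.16 and -0.23. With values under 4 raised to 4 CD52 was no longer called (1.00, adjusted p = 0.443), although another probe set of the gene was higher by 3.31 in the values as deposited. FCGR1A, an Fc receptor of macrophages that also has near-identical copies, was at 0.72, 3.48 and 2.22 under tosedostat and at 5.64, 5.58 and 5.67 in the combination. That difference was 3.49, or 1.63 with values under 4 raised to 4. Its untreated values, which the rule selected on, were 0.00, 0.00 and 0.25. CASP1, the protease that activates interleukin precursors, was higher by 4.16 and 4.33 in its member probe sets. Its other probe sets include 2 that read 8.04 and 8.05 in untreated cells and were higher by 1.54 and 1.63 in the combination, so not every probe set of the gene was low.

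Genes of motile cilia, sperm and testis made up 10 probe sets of 10 genes, of which 9 were called higher (median 3.70). DNAI4 and DYNLRB2, subunits of dynein motors, were higher by 3.80 and 3.65, RSPH3, a part of the radial spokes of cilia, by 3.35, TTC29, a protein of sperm tails, by 4.38, and MAGEB6, a cancer-testis antigen, by 2.69. TTLL6, an enzyme that adds glutamates to tubulin, was the exception, with 1.78, 1.42 and 5.61 under tosedostat against 5.25, 5.03 and 7.34 in the combination. Epithelial genes were 5, and 4 were called. MAL2, a protein of transport across polarised epithelia, was higher by 6.31 (standard error 0.25), LYPD3 by 5.96 and the annexin ANXA9 by 3.47. ESRP1, an epithelial splicing regulator, read 2.01, 2.94 and 3.06 untreated, 6.55, 7.75 and 7.07 under CHR-3996, 4.72, 5.21 and 5.37 under tosedostat, and 5.97, 6.47 and 5.91 under the combination, the smallest difference of any member. Muscle and heart had 4 genes, with 3 called: the homeodomain protein HOPX (4.0), the potassium channel KCNJ2 (3.90) and the muscle ubiquitin ligase FBXO32 (3.57). The other HOPX probe sets were not called, with differences of -0.11 and 0.67. CSRP3, a protein of the muscle Z-disc, was too scattered to be called, at 2.73, 6.15 and 3.95 in the combination.

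The remaining coding members were regulators. Of 21 genes of transcription and signalling all were called higher (median 3.67), among them the ETS factor ETV1 (4.78), the Hippo pathway coactivator WWTR1 (4.33), the Notch coactivator MAML2 (3.15), CREB5 of the CREB family (2.91), MLLT11, a gene fused in acute leukaemia (4.49), and RCAN2, an inhibitor of calcineurin (3.51). FRMD4B, a scaffold protein of the cell cortex, was higher by 6.42 (standard error 0.31), or by 4.29 when values under 4 were raised to 4, and TCIM by 1.835, or by 0.20 and not called. The other FRMD4B probe sets were not called, with differences of -1.70 and -1.10. The other ETV1 probe sets (differences of 0.24 to 1.61) and that of MAML2 (1.82) were not called either. Non-coding RNAs and pseudogenes were 16, all called higher (median 3.62). The non-coding RNA LOC101927166 had the largest rise of any member and the largest difference between combination and tosedostat, 6.70 (standard error 0.44, adjusted p = 7.9e-06). Its member probe set read 2.81, 4.19 and 3.46 untreated and 9.84, 11.20 and 10.28 under CHR-3996. The values were 3.41, 4.06 and 3.65 under tosedostat and 10.07, 11.02 and 10.13 under the combination. A further probe set of this RNA was far from silent, with a mean of 7.49 in untreated cells and 7.80 under CHR-3996. Its means were 7.32 under tosedostat and 7.83 in the combination, and that difference of 0.51 did not pass. LINC-PINT, a long non-coding RNA induced by p53, was higher by 5.06, or by 2.28 with values under 4 raised to 4. Its other probe sets were not called, with differences of 1.24, 0.34 and 0.69. That with the difference of 0.69 had a mean of 6.08 in untreated cells.

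Tosedostat alone was compared with untreated cells. Since the untreated arrays were selected to be low, an upward difference here is not independent of the rule. The median difference over the members was 0.57, against 0.03 over all probe sets and 0.04 over the eligible silent ones. In limma, 14 members were called higher and 1 lower, where 1.13% of all probe sets were called higher and 0.128% lower, and of the eligible silent probe sets 0.634% were called higher. The rise of PTGER4, a receptor for prostaglandin E2, was the firmest, from 4.60, 4.67 and 4.52 untreated to 7.08, 6.88 and 7.25 under tosedostat, a difference of 2.47 (standard error 0.15, adjusted p = 0.000166). Under CHR-3996 it read 9.85, 9.38 and 9.64, and 9.85, 9.63 and 9.63 under both, and the tosedostat arrays overlapped neither those below nor those above. SCN3B rose by 2.49, ADRA1A by 2.46, ESRP1 by 2.43, IDH1-AS1 by 2.03 and RAB3C by 2.01. The others called higher were HCP5, ZNF204P, ERICH3, LOC101929305, TRANK1, TDO2, RCAN2 and LINC00992, with differences of 0.89 to 1.68. MAL2 was the only member called lower, and it was not called when any 1 of these arrays was left out, with a replicate block, with either rescaling, in a fit on these groups alone or with values under 4 raised to 4. It went from 4.66, 5.45 and 4.74 to 3.94, 3.81 and 3.24, and the tosedostat values lay below the array medians. CPE had the largest mean difference, 2.81, but did not pass (adjusted p = 0.215). The count depended on the processing and on single arrays. Raising values under 4 to 4 left 6 higher (PTGER4, RCAN2, TDO2, HCP5, TRANK1 and LINC00992) and none lower, a fit on these 6 arrays alone called 2 (PTGER4 and ERICH3), and without tosedostat replicate 2 or without replicate 3 the count was 7 in each case. With no adjustment 44 members were higher and 2 lower at a p under 0.05, as were 11.99% of all probe sets in either direction.

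Above the array median on all 3 tosedostat arrays were 8 members, YPEL2, RCAN2, PTGER4, TDO2, YPEL3, FBXO32, TRANK1 and RSPH3. The highest tosedostat mean of any member was that of PTGER4, 7.07, so no member reached under tosedostat the median that the set had under CHR-3996, 7.66.

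The last comparison asked whether adding tosedostat moved the genes that CHR-3996 had switched on. No member was called higher and none lower in the combination against CHR-3996 in limma, where 0.011% of all probe sets were called higher and 0% lower. The CHR-3996 arrays were selected to be high, so a downward difference is not independent of the rule either. The median difference was -0.03, against 0.05 over all probe sets, and 117 members had a difference within 1 on the log2 scale. The 95% interval of the difference lay within 1 of 0 for 47 members and within 2 of 0 for 111, with a median half-width of 0.82, and differences somewhat over that size, with a mean as far as -1.43 from 0, were not called either. For MAP2 the interval was -0.93 to 0.68, for SYT11 -0.48 to 0.46, for ENPP2 -0.60 to 0.49 and for HSD11B1 -0.86 to 0.62. With no adjustment 2 members were higher and 8 lower at a p under 0.05, and 8.33% of all probe sets passed in either direction. RAB3C (0.64, interval 0.05 to 1.23) and CDH9 (0.59, 0.21 to 0.97) were the higher ones. The lower ones were MAP3K5-AS2, PTGS2, ESRP1, GOLGA6L6, BANK1, EPHA5, CREB5 and PCDH9. MAP3K5-AS2 had the lowest adjusted p of the members, 0.289, with a difference of -1.11, and PTGS2 had a difference of -1.10 (interval -1.89 to -0.30). CREB5 read 7.99, 9.03 and 8.74 under CHR-3996 and 7.83, 7.82 and 7.83 in the combination. When values under 4 were raised to 4, 3 members were called, PTGS2 lower and FRMD4B and RAB3C higher. MMP13 had the largest mean difference upwards, 1.31, with an interval from -0.41 to 3.04.

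**Figure D4:**
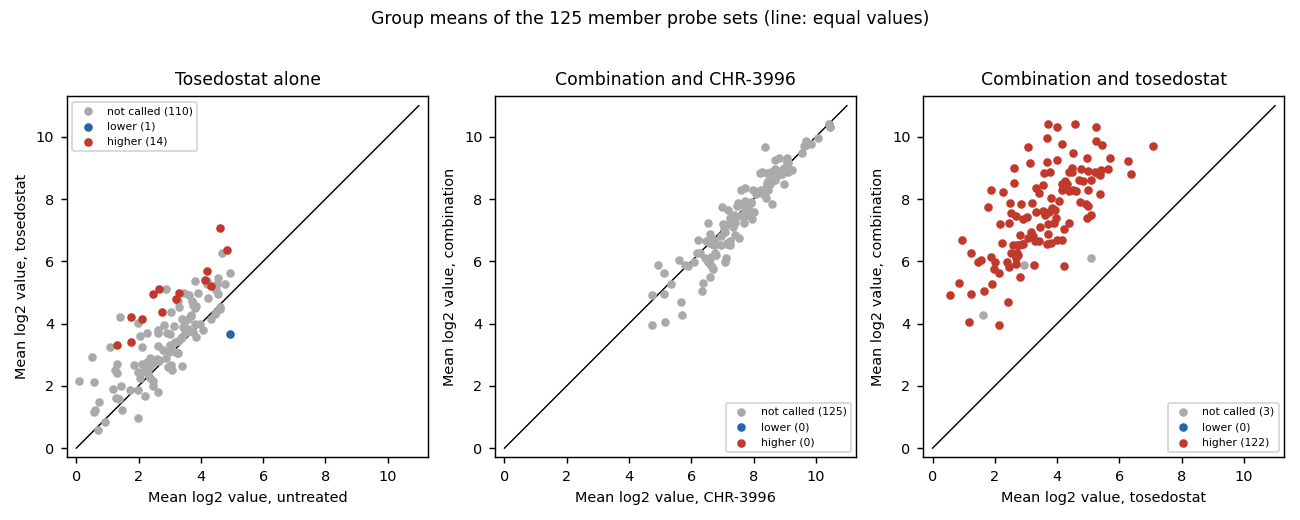
Each point is 1 member probe set by its mean log2 value in 2 groups, over 3 arrays each, and the line marks equal values. With tosedostat alone most points stay near the line, with 14 called higher and 1 lower; with the combination against CHR-3996, 117 of 125 lie within 1 of the line and none is called; with the combination against tosedostat all lie above the line and 122 are called higher.

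Lists of textbook genes of other tissues put these members in context, since most silent probe sets of such genes were not members. The list of steroid and lipid metabolism held 5 members among its 36 probe sets silent in untreated cells (13.9%), against 0.689% of all eligible silent probe sets. These members were in AKR1C3, CYP19A1, HSD11B1 and, by 2 probe sets, ENPP2. Of the list's 45 probe sets 12 (26.7%) were higher and none lower in the combination against tosedostat. MAP2, RAB3C, CPE, FN1, DMP1, ENPP2 and HSD11B1 were known to be members when the lists were drawn up, and each was put in a list. The counts of members in those lists, and the contrast with lists that hold none, are not independent of that choice. Neuronal adhesion and axon guidance had 4 of 56 silent probe sets (7.14%), in CNTN1, EPHA5 and SLIT2, with 22 of 76 (28.9%) higher and none lower. Over all eligible probe sets 7833 of 40822 (19.2%) were higher and 3779 lower. Synaptic vesicle genes had RAB3C and SYT11 as members and 16 of 59 probe sets (27.1%) higher with 3 lower. Neuronal channels and receptors had KCND2, with 12 of 69 (17.4%) higher and none lower. The neuronal cytoskeleton list (MAP2) had 10 of 64 (15.6%) higher and none lower, and the neuroendocrine granule list (CPE) 6 of 27 (22.2%) higher and 1 lower. Matrix and stromal genes had FN1 alone as a member, through 4 of 101 silent probe sets, with 17 of 120 (14.2%) higher and 2 lower. Its summed linear level was 7629 to 10695 in untreated cells and 7544 to 10152 under CHR-3996, which overlap. The bone list had DMP1, with 7 of 26 (26.9%) higher and 1 lower, and the epithelial list ESRP1, with 6 of 38 (15.8%) higher and 1 lower. No member came from the lists of muscle contraction (3 of 49 probe sets higher, none lower), germ line (4 of 27 higher, 2 lower), liver secreted proteins (3 of 43 higher, 2 lower), endothelial cells (2 of 23 higher, none lower) or T, NK, myeloid, mast and red blood cells (6 of 37 higher, none lower). In that order these lists had 35, 15, 31, 15 and 25 probe sets silent in untreated cells. At the share of 0.689% over all eligible silent probe sets, lists this small would mostly hold no member. The members MAGEB6, CSRP3, RHD and FCGR1A are genes of such tissues that were not on the lists. All lists were described by counts, with no test of the list.

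The plasma cell identity of the cells was still read in every group. Of 12 plasma cell genes, such as SDC1, PRDM1, IRF4 and XBP1, 10 lay above the array median on all 3 arrays of each group. Of the 23 probe sets of these genes 7 were lower and 1 higher in the combination than under tosedostat, and the summed linear level was 55863 to 57869 untreated, 56956 to 61064 under tosedostat, 29750 to 43095 under CHR-3996 and 38479 to 39245 under the combination. The list of T, NK, myeloid, mast and red blood cell markers summed to 656 to 851 untreated, 668 to 857 under tosedostat, 1187 to 1809 under CHR-3996 and 1283 to 1990 in the combination. The part of these shifts in the members' values was not tested.

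Some features set the members apart in description from the other genes silent in untreated cells. By RefSeq biotype 99 of the 115 genes (86.1%) coded for protein, against 78.7% of silent genes, and 12 (10.4%) were long non-coding RNAs, against 17.7%. The genes were long, with a median span of 46.0 kb against 27.5 kb, and 38.6% against 20.5% spanned over 100 kb. Chromosome 4 carried 14 of the 114 genes with a position (12.3%, against 4.41% of silent genes), and chromosome 19 carried 1 (0.877%, against 6.46%). No test was made of these shares.

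In the promoter windows the median GC content was 57.2% over the 90 member genes, 61.7% over 8849 silent genes and 58.3% over all 27305 promoters of the table. Motifs were searched on both strands over the whole window. TATAAA was found in 13 member promoters (14.4%), against 10.2% of silent genes and 11.95% of all promoters. GGGCGG was found in 40 (44.4%), against 53.1% and 44.6%. TGACGTCA was found in 2, FN1 and ARG2 (2.22%, against 2.08% and 1.98%), TGAGTCA, the site of AP-1 factors, in 4 (4.44%, against 4.27% and 4.92%), and CACGTG, the E box, in 4 (4.44%, against 7.80% and 7.43%). TTCAGCACC, the core of the element bound by the neuronal gene repressor REST, was in none of the 90 and in 0.403% of all promoters. A match is a description of the letters and not of a factor bound there.

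Other values moved with the groups. For β-actin, the 3′ control probe set was above the 5′ one, on the log2 scale, by 1.98 to 2.32 on untreated arrays and 1.97 to 2.19 with tosedostat, against 1.43 to 1.76 with CHR-3996 and 1.08 to 1.38 with both, whereas the same difference for GAPDH was 0.27 to 0.52 over the 4 groups. Among the 3 arrays of a group, the members were most often highest on the array numbered 2. That was so for 87 of 125 members under CHR-3996 (69.6%, against 46.0% of all probe sets) and for 79 in the combination (63.2%, against 34.1%), and 71 members were highest on array 2 in both. Under tosedostat the count was 70 (56.0%, against 33.7%) and in untreated cells 58 (46.4%, against 36.2%). The members' values under CHR-3996 spanned a median of 0.66 over its 3 arrays and at most 3.26, for CSRP3. Without untreated replicate 2 the rule would give 157 probe sets, 118 of them members. Whether RNA quality or an array has a part in the members' values was not tested. Leaving out any 1 array, 119 to 121 members were called higher in the combination than under tosedostat.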

How the data were processed

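RNA from 12 samples of H929 cells, 3 per group, was measured on Affymetrix U133 Plus 2.0 arrays. The authors amplified 100 ng of total RNA in 2 cycles, labelled it with biotin, and normalized the arrays in dChip, with version and summary method not given in the sources used here. Deposited values are log2 expression values of 54675 probe sets, of which 62 controls were left out. Each array holds 1141 to 1344 exact zeros and at most 9 negative values. Gene symbols came from the platform annotation, which gives 41091 probe sets 1 symbol, 1801 several and 11721 none, and were updated through RefSeq gene identifiers (124 of 125 members matched). The members, the gene lists and the tests were chosen with earlier results of these data known.

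No further scaling or filter was applied, since a filter would pass members through the groups where they are high (124 of 125 passed a filter at the 40th percentile). With limma 3.58.1 (R 4.3.3) a model was fitted to all 54613 probe sets and 12 arrays with 1 term per group, and Benjamini-Hochberg adjustment over all of them was used, with a threshold of 0.05. CHR-3996 against untreated cells was not tested, as it chose the members. The fit was tested on simulated data. Named were the 7 genes MAP2, ENPP2, RAB3C, FN1, HSD11B1, DMP1 and CPE, those largest in the rule, the 5 highest and 5 lowest for combination minus tosedostat, up to 5 called each way in the other comparisons, the 3 probe sets on each side of a threshold and all members found in the lists; some of those given by this rule are left to the ranges, and other genes were chosen by function after their values were seen. Replicate arrays correlated at r of 0.962 to 0.969, and precision is limited by the number of arrays. Alternatives tried were other filters, scalings, variance models and thresholds, a floor at 4, a replicate block, a fit on the compared groups alone and leaving out each array in turn. Figures were drawn with matplotlib 3.10.9.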

Additional observations from a re-analysis of the deposited data

How the results depend on the processing

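Members called in the combination against tosedostat numbered 111 to 125 under the alternatives, all of them higher. The 111 were all the members that a filter at the 60th percentile left to test. The floor at 4 gave 115, the variance trend with robust estimation gave 125, and leaving out 1 array gave 119 to 121. For tosedostat against untreated cells, where 15 were called, the count was 29 with a filter at the 60th percentile, 27 with the variance trend and robust estimation, 6 with a floor at 4, 2 in a fit on these groups alone, and 7 to 11 when 1 array was left out. The filter tests fewer probe sets and the smaller fit fewer arrays; the cause of the other shifts was not tested. For the combination against CHR-3996, where none was called, the floor at 4 gave 3, and no member was called when 1 array was left out (0 to 0). The rule itself gave 113 probe sets after quantile normalization and 108 with equal array medians, 365 with a rise of at least 3, 31 with a rise of at least 5, and 116 to 157 without 1 of its arrays. Of the alternative values of 21 named members, 115 kept their side of the threshold and 11 crossed it (CPE, MTTP and TCIM to not called, ESRP1 to called), and none turned its direction. Arrays of the same number deviated together weakly, with correlations of 0.04 to 0.10 for untreated and tosedostat arrays. They were 0.05 to 0.08 for tosedostat and combination and 0.06 to 0.10 for CHR-3996 and combination. Yet 9 of 9 arrays correlated best with their own number, so arrays of a number may share a part of their deviation. The main fits did not pair arrays by number, and whether a number marks samples handled together is not stated. With the replicate number as a block, 124 members were called in the combination against tosedostat, 19 in tosedostat against untreated cells and 0 in the combination against CHR-3996. In the first of these the block moved the adjusted p from limma both ways. It went from 0.0671 to 0.013 for ESRP1, from 0.043 to 0.000879 for CPE and from 4.23e-06 to 3.27e-05 for MAP2.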
